A study of Mus musculus with 4 samples.

Results

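The genes described here are 9 genes of the calcineurin-NFAT pathway, measured by RNA sequencing in the outflow tract of the mouse heart at embryonic day 12.5. They were chosen by name, as the NFATC transcription factors (Nfatc1, Nfatc2, Nfatc3 and Nfatc4), subunits of the phosphatase calcineurin (Ppp3ca, Ppp3cb and Ppp3r1) and the calcineurin inhibitors Rcan1 and Rcan2, and not by any measured value. Earlier results of these data were known when the choice was made. They are 9 of the 45706 genes in the count table, and all 9 were among the 16570 genes with enough reads to be tested. The mutant embryos were Sox17eKO, in which Sox17, the gene of an endothelial transcription factor, was deleted by a Cre recombinase driven by an Nfatc1 enhancer and aimed at endothelium of the aortic root. The embryos set against them were wild type (WT), and both groups are labelled C57BL/6. Each genotype had 2 libraries, and each library pooled the outflow tracts of 10 hearts (20 mice per genotype). The deletion is aimed at cells in which the enhancer is active, while the RNA came from the whole tissue, and the sources used here do not say whether WT embryos carried the Cre. In such bulk RNA, fewer cells of a type and less RNA per cell cannot be told apart.

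Calcineurin is a phosphatase that is switched on when calcium-bound calmodulin engages its catalytic A subunit, which works together with a calcium-binding B subunit. It removes phosphates from the cytoplasmic NFATC factors, which then enter the nucleus and bind DNA at a short GGAAA core, often beside a partner such as AP-1 or a GATA factor. NFATC1 is known from mouse knockouts to be required in the endocardium for the semilunar valves of the outflow tract, and its expression marks the endocardial cells of the forming valves. The RCAN proteins bind calcineurin and restrain it, and transcription of a short form of Rcan1 from an internal start is itself raised by NFAT.

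Rcan1 is therefore shown with both of its RefSeq start sites, since the count of Rcan1 pools transcripts from either one. The 250 bases before each start are printed 5′ to 3′ along the gene from RefSeq (GRCm38.p6, minus strand), at chr16:92466170-92466419 for the upstream start and chr16:92400079-92400328 for the internal start. Capitals mark every GGAAA and its reverse complement TTTCC, which cannot overlap each other.
Rcan1 upstream start: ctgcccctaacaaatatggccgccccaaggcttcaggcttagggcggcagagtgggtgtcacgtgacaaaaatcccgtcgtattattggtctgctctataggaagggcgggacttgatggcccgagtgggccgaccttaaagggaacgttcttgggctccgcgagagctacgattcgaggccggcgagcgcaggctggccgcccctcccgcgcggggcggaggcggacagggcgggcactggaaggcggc
Rcan1 internal start: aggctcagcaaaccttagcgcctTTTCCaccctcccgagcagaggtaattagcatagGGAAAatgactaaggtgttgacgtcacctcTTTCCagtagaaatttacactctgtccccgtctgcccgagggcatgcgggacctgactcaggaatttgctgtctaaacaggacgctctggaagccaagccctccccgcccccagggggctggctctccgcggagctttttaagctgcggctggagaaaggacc
Both windows lay inside the GENCODE span of Rcan1 and shared 0 bp with its annotated exons. The internal start had 3 matches, 1 of GGAAA and 2 of TTTCC, and the upstream start had 0. Of 32851 promoter windows of this length, 55.6% held at least 1 match on either strand and 6.39% held at least 3. RefSeq promoters were matched for 7 of the 9 genes (all but Nfatc1 and Ppp3ca), and 7 of their 12 windows held at least 1 match. Windows before starts of Nfatc2, Ppp3cb and Nfatc4 also held 3. A match is a run of letters and not a measured binding site.

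Reads assigned to genes numbered 14306550 and 21883956 in Sox17eKO and 12880081 and 8113463 in WT. Sox17, the deleted gene, had 40 and 62 reads in Sox17eKO and 78 and 54 reads in WT, and fell by 1.19 on the log2 scale (edgeR adjusted p = 0.00574), a call that ended without WT replicate 2 (-1.11, edgeR adjusted p = 0.0519). Markers of outflow tract cells were present: all 12 pan-endothelial, 7 endocardial, 10 cardiomyocyte, 10 cushion mesenchyme and 6 smooth muscle markers had reads in every library. The summed level of the 12 pan-endothelial markers was 1031 and 1105 CPM (counts scaled by library size) in Sox17eKO and 1119 and 1157 CPM in WT. The 7 endocardial markers summed to 250 and 275 CPM in Sox17eKO and 280 and 288 CPM in WT, the 10 cushion mesenchyme markers to 6903 and 6702 CPM in Sox17eKO and 6471 and 5585 CPM in WT, and the 6 smooth muscle markers to 1813 and 1769 CPM in Sox17eKO and 1954 and 1991 CPM in WT. The 10 cardiomyocyte markers summed to 32673 and 31932 CPM in Sox17eKO and 21467 and 20705 CPM in WT, a gap carried by Ttn, the gene of the giant muscle protein titin, at 19392 and 18324 CPM in Sox17eKO and 8111 and 6485 CPM in WT. The other 9 cardiomyocyte markers summed to 13282 and 13608 CPM in Sox17eKO and 13356 and 14220 CPM in WT, and the median log2 fold change of all 10 was -0.10. Of the pan-endothelial markers Tie1 was called lower and is described below, and no endocardial marker was called. In the cardiomyocyte, cushion mesenchyme and smooth muscle lists Ttn, Ryr2, Vcan, Pdgfra and Myocd were called higher in Sox17eKO (log2 fold changes 1.37, 0.74, 0.52, 0.32 and 0.31) and Nppa, Dcn and Cnn1 lower (-0.34, -0.32 and -0.35). The calls of Ttn and Ryr2 held in every fit that left out 1 library, and the other 6 ended without WT replicate 2 (edgeR adjusted p = 0.0882 for Vcan, 0.374 for Pdgfra, 0.0680 for Myocd, 0.133 for Nppa, 0.0959 for Dcn and 0.291 for Cnn1). Those of Pdgfra and Nppa also ended without Sox17eKO replicate 1 (edgeR adjusted p = 0.172 and 0.0981), those of Nppa, Dcn, Cnn1 and Myocd without Sox17eKO replicate 2 (0.0573, 0.279, 0.0763 and 0.219), and those of Dcn and Myocd without WT replicate 1 (0.0864 and 0.211). In a fit with a trend on gene length removed (described below), Ttn, Ryr2, Dcn and Tie1 kept their calls (log2 fold changes 0.72, 0.32, -0.36 and -0.33). The calls of Vcan, Pdgfra, Myocd, Nppa and Cnn1 ended in that fit (edgeR adjusted p = 0.0703, 0.230, 0.208, 0.225 and 0.0832), and Col1a2 was called lower (-0.30, edgeR adjusted p = 0.0331). Of other cells, 8 erythroid markers summed to 1612 and 2185 CPM in Sox17eKO and 2435 and 3262 CPM in WT, 7 macrophage markers to 105 and 103 CPM in Sox17eKO and 107 and 114 CPM in WT, and 6 neural crest and neuronal markers to 35.5 and 24.1 CPM in Sox17eKO and 33.4 and 32.3 CPM in WT, Foxd3 having 4 reads in all. All 8 erythroid markers had a lower fitted level in Sox17eKO (median log2 fold change -0.54). Of these Hbb-y was called (-0.56, edgeR adjusted p = 0.0288), but not with the length trend removed (-0.37, edgeR adjusted p = 0.304). The Hbb-y call held in only 2 of the 4 fits that left out 1 library. The share of uniquely placed reads that fell outside annotated exons was 34.1% and 29.5% in Sox17eKO and 22.2% and 20.4% in WT, and the part of these shifts in the values below was not tested.

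Of the 9 genes, none was called changed between Sox17eKO and WT (edgeR's quasi-likelihood test, Benjamini-Hochberg adjusted p under 0.05 over all 16570 genes), against 5.35% of all genes tested (4.13% higher and 1.22% lower in Sox17eKO). Nfatc3 was the 1 gene with an unadjusted p under 0.05, a level that 20.9% of all genes reached. DESeq2 and limma-voom also called 0 of the 9, DESeq2 giving no adjusted p for Nfatc1, Nfatc2, Nfatc4 and Rcan2. The median log2 fold change (Sox17eKO over WT, from the fit, called log2 change from here on) of the 9 genes was -0.01, the same as the median of all genes tested, and single values ran from -0.10 for Ppp3ca to 0.33 for Nfatc2. For 8 of the 9 genes the 95% interval of the difference lay within a 1.5-fold change in either direction, the exception being Nfatc2. The Sox17eKO and WT libraries did not overlap for 4 genes, with Sox17eKO higher for Nfatc3, Nfatc4 and Ppp3cb and lower for Ppp3ca, and 52.8% of all genes were separated in this way. The gap between the genotype means was larger than the gap between replicates for those 4 genes, and smaller for the other 5.

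**Figure D1:**
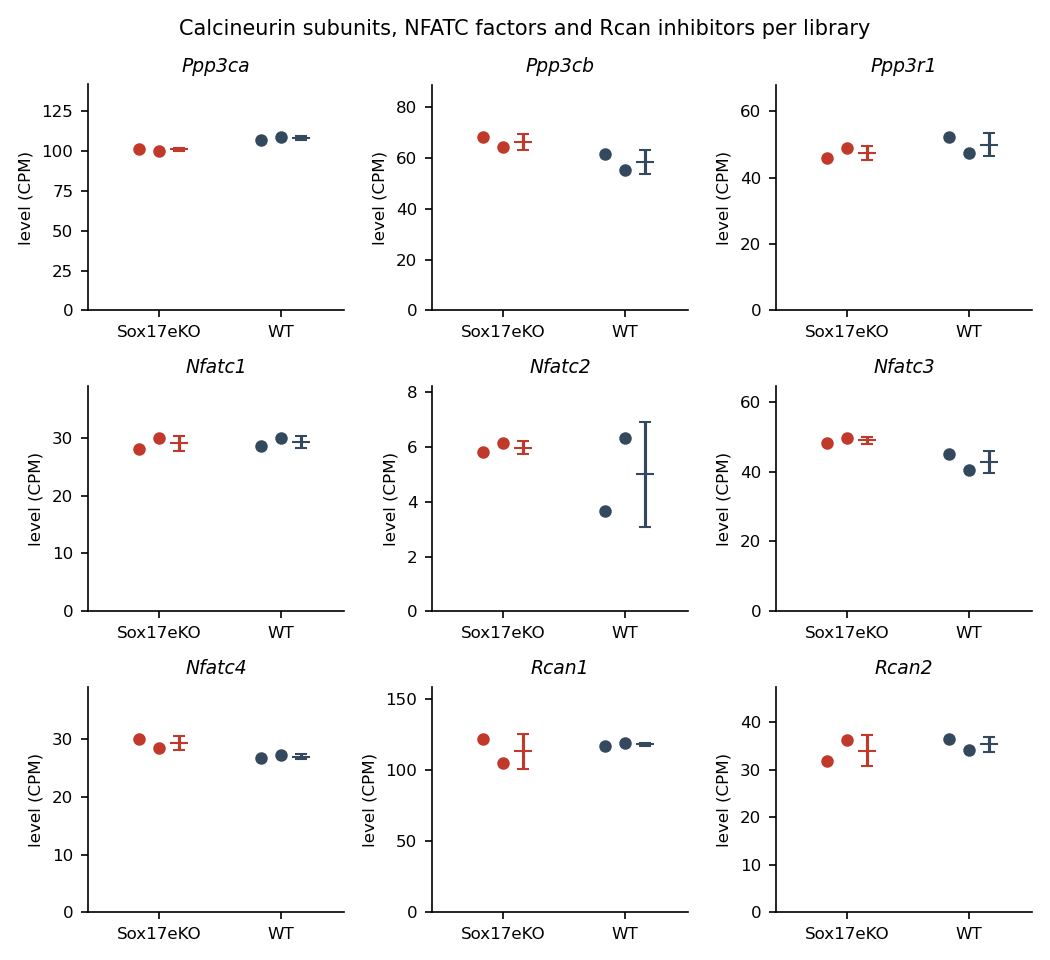
Level in CPM (y axis, from 0, a separate scale for each gene) of each of the 9 genes in the 2 Sox17eKO and 2 WT libraries; points are libraries, and the bar beside them is the mean with 1 SD. Most pairs of groups lie close together, and the widest gap between replicates is that of Nfatc2 in WT (3.65 and 6.33 CPM).

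Levels per kilobase of exon, the scale on which genes can be compared, spanned a 72.3-fold range over the 9 genes. Rcan1 was the most abundant at 36.8 ± 3.90 CPM per kilobase in Sox17eKO and 38.1 ± 0.416 in WT (mean ± SD, n = 2 each), higher than 93.4% of the 13361 protein-coding genes tested. Ppp3r1 followed at 14.7 ± 0.630 in Sox17eKO and 15.5 ± 1.07 in WT, and Ppp3ca at 10.1 ± 0.0940 in Sox17eKO and 10.8 ± 0.141 in WT, all in CPM per kilobase. Rcan2 (7.96 over all 4 libraries) and Ppp3cb (7.07) came next, and their ranges overlapped, so their order was not resolved. The NFATC factors were the least abundant of the 9. Nfatc4 averaged 4.85 CPM per kilobase over the 4 libraries, Nfatc3 3.91 and Nfatc1 3.90, with Nfatc3 and Nfatc1 overlapping in range. Nfatc2 was far below them at 0.564 ± 0.0233 CPM per kilobase in Sox17eKO and 0.471 ± 0.179 in WT, higher than 9.07% of the protein-coding genes. All other neighbours in this order were separated in every library.

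Among the catalytic subunits of calcineurin, Ppp3ca encodes the A-alpha form and Ppp3cb the A-beta form, the one that mouse knockouts tie to growth of the heart muscle. Ppp3ca was at 101 and 100 CPM in the Sox17eKO libraries and at 107 and 109 CPM in the WT libraries. Both Sox17eKO values lay below both WT values, with little spread within either genotype. Its log2 change was -0.10 (SE 0.07, 95% interval -0.26 to 0.05, edgeR adjusted p = 0.455). Ppp3cb was at 68.3 and 64.1 CPM in Sox17eKO and at 61.6 and 55.0 CPM in WT. It was separated in the opposite direction, with a log2 change of 0.18 (SE 0.08, 95% interval -0.00 to 0.35, edgeR adjusted p = 0.242). Background shares for such separated genes were 26.2% for lower and 26.5% for higher in Sox17eKO. Ppp3r1, which encodes the calcium-binding B subunit, was at 46.1 and 48.9 CPM in Sox17eKO and at 52.4 and 47.6 CPM in WT. The genotypes overlapped for this gene, and its log2 change was -0.08 (95% interval -0.27 to 0.11, edgeR adjusted p = 0.679).

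Nfatc1, whose enhancer drove the Cre, had nearly the same level in both genotypes. Sox17eKO libraries held 407 and 657 of its reads and WT libraries 368 and 237, which gave 28.1 and 29.9 CPM in Sox17eKO and 28.5 and 30.0 CPM in WT. The values interleave, and the fitted level in Sox17eKO was 0.993 times that in WT, with a 95% interval of 0.852 to 1.16 (edgeR adjusted p = 0.973). Nfatc1 (ENSMUSG00000033016) lies on the minus strand of chromosome 18 from 80606205 to 80713071 in GENCODE M21 (GRCm38), a span of 107 kb with 7.47 kb of exon, and the antisense gene AC123818.1 inside it shares 0 bp of exon with it. By the root mean square difference of centred log2 CPM over the 4 libraries, the protein-coding genes nearest to Nfatc1 among 10920 with a mean of at least 5 CPM were Smyd2 (0.00244), Agtrap (0.00322) and Akap12 (0.00777), against a median difference of 0.108 over those genes. They were picked as the smallest of 10920 differences, so a value far below the median was given by the search. Counting error alone spans 26.3 to 34.1 CPM for Nfatc1 in WT replicate 2 (95%, Poisson). Over 4 libraries this likeness is a description.

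Set against other endothelial RNA in the same library, Nfatc1 made up slightly more in Sox17eKO. Its CPM amounted to 2.72% and 2.70% of the summed CPM of the 12 pan-endothelial markers in Sox17eKO and to 2.55% and 2.59% in WT. The log2 of this ratio averaged -5.20 ± 0.01 in Sox17eKO and -5.28 ± 0.02 in WT (SD, n = 2 each), a difference of 0.08. Set against the 7 endocardial markers the values were 11.2% and 10.9% in Sox17eKO and 10.2% and 10.4% in WT, a log2 difference of 0.10. The Sox17eKO libraries were above the WT libraries in both ratios. With 2 libraries against 2 the exact two-sided permutation test gave p = 0.333 for each, the smallest it can give, so these ratios are a description. Of those markers, Tie1, an endothelial receptor, fell (log2 change -0.34, edgeR adjusted p = 0.0204), but not without Sox17eKO replicate 1 (edgeR adjusted p = 0.130) or without WT replicate 2 (0.225). The other 11 pan-endothelial and all 7 endocardial genes did not pass. The Nfatc1 log2 change was -0.01 (95% interval -0.23 to 0.21). Also below 0 were 11 of the 12 pan-endothelial and all 7 endocardial markers, and 8578 of the 16570 genes tested. The median log2 changes of the pan-endothelial and endocardial markers, -0.13 and -0.19, lay within the Nfatc1 interval, so Nfatc1 was not set apart from them. Npr3 alone gave 155 and 184 CPM of the endocardial sum in Sox17eKO and 174 and 176 CPM in WT. With a trend on gene length removed (described below), Nfatc1 was at -0.11, against medians of -0.14 for the pan-endothelial and -0.20 for the endocardial markers. That trend was 0.11 at Nfatc1, and its part in the ratios was not tested.

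The other NFATC factors are known for roles outside the endocardium as well, since in the mouse Nfatc2, Nfatc3 and Nfatc4 act in the early myocardium and Nfatc3 and Nfatc4 in the patterning of vessels. Nfatc3 was at 48.3 and 49.7 CPM in Sox17eKO and at 45.0 and 40.5 CPM in WT. Sox17eKO was above WT without overlap, with a log2 change of 0.19 (SE 0.09, 95% interval 0.00 to 0.38, edgeR adjusted p = 0.237). Nfatc4 was at 30.1 and 28.5 CPM in Sox17eKO and at 26.8 and 27.3 CPM in WT. It also did not overlap, and its log2 change was 0.12 (95% interval -0.11 to 0.34, edgeR adjusted p = 0.580). Nfatc2, the least covered of the 9, had 84 and 135 reads in Sox17eKO and 47 and 50 reads in WT. This gave 5.79 and 6.14 CPM in Sox17eKO and 3.65 and 6.33 CPM in WT, so that 1 WT library was lowest and the other highest. The 2 WT values differed 1.74-fold, with counting intervals (95%, Poisson) of 2.68 to 4.85 CPM for WT replicate 1 and 4.69 to 8.34 CPM for WT replicate 2. The Nfatc2 log2 change was 0.33 (95% interval -0.17 to 0.82, edgeR adjusted p = 0.462), and without WT replicate 1 it was -0.08.

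Rcan1, the inhibitor whose transcription responds to NFAT, was at 122 and 105 CPM in Sox17eKO and at 117 and 119 CPM in WT. The Sox17eKO libraries lay on either side of the WT libraries. The log2 change was -0.05 (SE 0.08, 95% interval -0.23 to 0.12, edgeR adjusted p = 0.766). A count per gene cannot show whether the 2 starts printed above were used in the same proportion in both genotypes. Rcan2, the other inhibitor, was at 31.9 and 36.4 CPM in Sox17eKO and at 36.6 and 34.3 CPM in WT. The genotypes overlapped, and the log2 change was -0.05 (95% interval -0.27 to 0.16, edgeR adjusted p = 0.821).

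**Figure D2:**
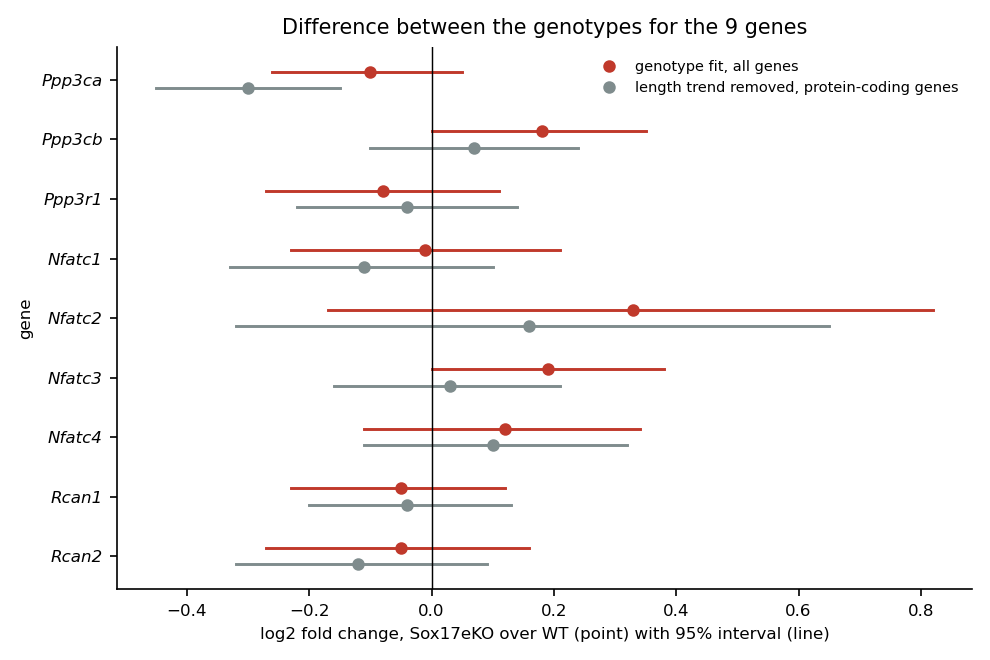
Log2 fold change of Sox17eKO over WT (x axis) for each of the 9 genes (y axis), with the 95% interval as a line, from the fit on genotype over all genes and from the fit with the length trend removed. Every interval of the genotype fit reaches 0 at 2 decimals, and Ppp3ca is the 1 gene whose interval lies apart from 0 with the length trend removed (-0.45 to -0.15).

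The fit was repeated on protein-coding genes after removing from each library a smooth curve fitted to the lengths of exons and whole genes. For the lengths of the 9 genes, the fitted trend in Sox17eKO over WT ran from -0.03 for Ppp3r1 to 0.20 for Ppp3ca on the log2 scale. Ppp3ca, with 9.98 kb of exon over a span of 268 kb, has the longest span of the 9 genes. With the trend removed the Ppp3ca log2 change was -0.30 (SE 0.07), and Ppp3ca was then called lower (edgeR adjusted p = 0.0475), among the 0.988% of 13361 protein-coding genes called in that fit. With 1 library also left out, in fits chosen after seeing the data, it was -0.31 without Sox17eKO replicate 1 (edgeR adjusted p = 0.0561), -0.28 without Sox17eKO replicate 2 (0.140), -0.36 without WT replicate 1 (0.0325) and -0.24 (0.440) when WT replicate 2 was left out. The other 8 genes were not called with the trend removed. The values of Nfatc3 and Ppp3cb moved to 0.03 and 0.07, and that of Nfatc4, the shortest in span at 10.8 kb, was 0.10.

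Shares within a family do not depend on how libraries are scaled, and they are given per kilobase of exon. The length trend was not removed from them, and it differed within families. It was 0.20 at Ppp3ca and 0.11 at Ppp3cb, and 0.11 at Nfatc1, 0.18 at Nfatc3 and 0.02 at Nfatc4. Its part in the shares was not tested. Of the 3 catalytic subunit genes, Ppp3ca made up 44.0% and 46.3% in Sox17eKO and 47.7% and 49.2% in WT, and Ppp3cb 33.6% and 33.7% in Sox17eKO and 31.1% and 28.1% in WT. Neither gene overlapped between the genotypes. The differences were -3.31 percentage points for Ppp3ca and 4.05 for Ppp3cb, and the exact two-sided permutation test gave p = 0.333 for each, the smallest it can give. Ppp3cc, the A-gamma form, made up 21.2% ± 1.70 in Sox17eKO and 22.0% ± 1.03 in WT (SD, n = 2 each). Among the NFATC factors, Nfatc1 made up 27.6% and 29.2% in Sox17eKO and 30.3% and 31.4% in WT, also without overlap and with the same smallest p = 0.333 in the exact permutation test. In CPM, Nfatc1 overlapped between the genotypes, while Nfatc3 and Nfatc4, parts of the same sum, were higher in Sox17eKO without overlap. How often shares separate in other families was not computed, and in CPM 52.8% of all genes were separated. Nfatc4 was the largest part of the family, at 36.9% ± 1.70 in Sox17eKO and 36.7% ± 0.217 in WT, and Nfatc2 the smallest, at 4.13% ± 0.146 in Sox17eKO and 3.71% ± 1.38 in WT (SD, n = 2 each). The place of Nfatc4 rests on its shorter exons, 5.81 kb against 11.7 kb for Nfatc3. In CPM, not divided by length, Nfatc3 was above Nfatc4 in every library. Rcan1 made up 78.1% and 73.9% of the RCAN family in Sox17eKO and 75.1% and 77.3% in WT, and its mean share differed by -0.163 points.

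**Figure D3:**
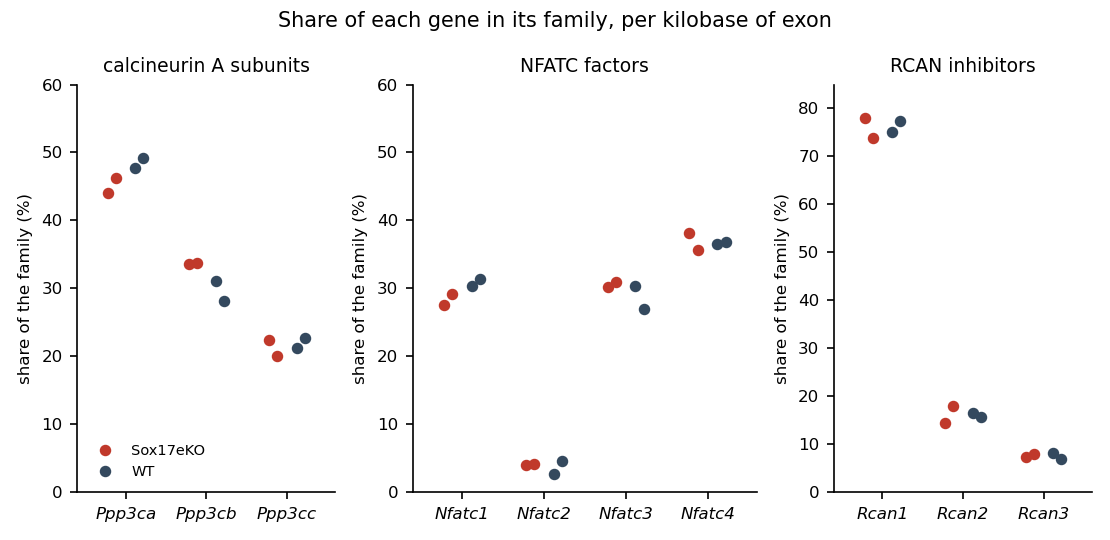
Share of each gene in the summed CPM per kilobase of exon of its family (y axis, percent, from 0; the RCAN panel has a longer scale) in each library, with Sox17eKO points left of WT points. The Ppp3ca and Nfatc1 points of Sox17eKO lie below those of WT and the Ppp3cb points above, while the Rcan1 points of the genotypes overlap.

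Of all genes tested, 5.35% were called in the fit on genotype, and 0.988% of protein-coding genes with the length trend removed. In the rest of the pathway, 5 of the 57 genes tested (59 listed) passed. The number was 3 without either Sox17eKO replicate, 2 without WT replicate 2 and 1 with the length trend removed. Of the 4 close relatives of the 9 genes, Nfat5 rose, Ppp3cc and Rcan3 did not pass (-0.05 each) and Ppp3r2 had too few reads to be tested. NFAT5 shares the DNA-binding domain of the family but answers to osmotic stress and is not switched by calcineurin. Nfat5 was at 136 and 127 CPM in Sox17eKO and at 93.1 and 79.3 CPM in WT. Every Sox17eKO value was above every WT value, with a log2 change of 0.60 (SE 0.08, edgeR adjusted p = 4.87e-04), and the call held in all 4 fits that leave out 1 library. Once the length trend was removed its log2 change was 0.35 (edgeR adjusted p = 0.0284).

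Of 13 genes of calcium release, entry and sensing, 1 rose and 2 fell, and the median log2 change was -0.03. Over all genes tested, 4.13% were called higher and 1.22% lower. Itpr2, an intracellular calcium release channel, rose (0.29, edgeR adjusted p = 0.0436). Calm2 and Calm3, which both encode calmodulin, the calcium sensor that activates calcineurin, fell (-0.27 and -0.29, edgeR adjusted p = 0.0436 and 0.0473). Calm2 was at 273 and 261 CPM in Sox17eKO and at 319 and 326 CPM in WT, and Calm3 at 348 and 387 CPM in Sox17eKO and at 431 and 468 CPM in WT. The calls of Itpr2, Calm2 and Calm3 were close to the threshold. The Itpr2 call held without WT replicate 1 and ended without Sox17eKO replicate 1 (edgeR adjusted p = 0.0615), Sox17eKO replicate 2 (0.172) or WT replicate 2 (0.327). The Calm3 call ended without Sox17eKO replicate 1 (edgeR adjusted p = 0.354) or WT replicate 2 (0.311). The Calm2 call ended without any 1 of the 4 libraries, at an edgeR adjusted p of 0.114 and 0.213 without Sox17eKO replicates 1 and 2 and of 0.0666 and 0.209 without WT replicates 1 and 2. With the length trend removed none of them passed (0.01, -0.15 and -0.19 for Itpr2, Calm2 and Calm3).

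Of 14 calcineurin binding proteins, Akap6, which anchors signalling enzymes at the nuclear envelope of cardiomyocytes, rose and none fell. It was at 120 and 125 CPM in Sox17eKO and at 86.8 and 83.4 CPM in WT, a log2 change of 0.53 (SE 0.08, edgeR adjusted p = 7.34e-04). The call held in all 4 fits that leave out 1 library, but not once the length trend was removed (0.24, edgeR adjusted p = 0.132). None of 11 NFAT kinases, which return the factors to the cytoplasm, passed, and Dyrk1a had the smallest p among them (0.28, edgeR adjusted p = 0.0528). None of 6 transcription partners passed, with Mef2c closest (0.25, edgeR adjusted p = 0.0755). Of 11 genes reported as NFAT targets, 10 were tested and none passed, with a median log2 change of -0.12. Acp5, a phosphatase gene known as an NFATC1 target in osteoclasts, had the smallest p of that list, at 3.45 and 4.23 CPM in Sox17eKO and 5.58 and 6.33 CPM in WT (-0.60, edgeR adjusted p = 0.123).

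**Figure D4:**
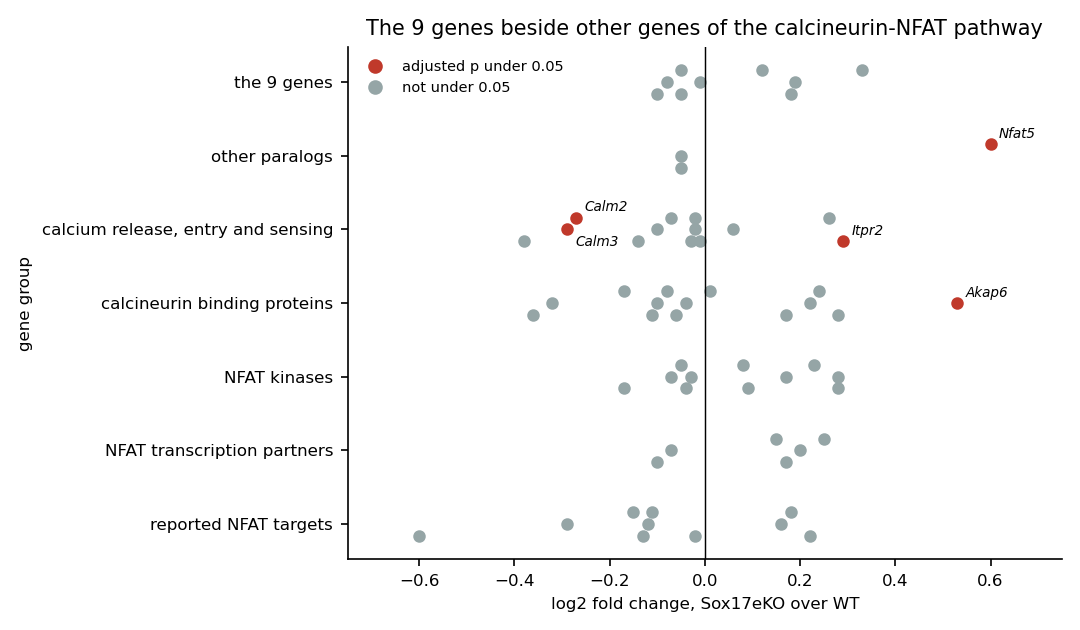
Log2 fold change of Sox17eKO over WT (x axis) of each tested gene (points) in the 9 genes and the other gene groups of the pathway (y axis); red points passed the test. None of the 9 genes passed, and the 5 that did in other groups are named.

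Where the 9 genes touch other genes, 2 overlaps bear on their counts. Ppp3r1 shares 462 bp of exon with Wdr92 on the same strand (Ppp3r1 at chromosome 11 from 17159263 to 17200375, plus strand, GRCm38), and Nfatc3 shares 219 bp with Esrp2 on the opposite strand (Nfatc3 at chromosome 8 from 106058840 to 106130537, plus strand). Which strand setting the counting used is unknown from the sources used here, and reads of these stretches may have been mixed or left out. The same limit holds for Sox17, the deleted gene, which shares 804 bp of its 4.77 kb of exon with Gm37587 on the opposite strand. The exons of the other 7 of the 9 genes share 0 bp with, or do not meet, another annotated gene.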

How the data were processed

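RNA libraries were strand-specific per the labels' protocols. The deposited table holds raw counts, not normalized, made with TopHat2 and HTSeq on mm10 per the submitters' processing notes; the sources used here give no versions, annotation release or strand option. The 5 summary rows of HTSeq entered no library size or test. Symbols, lengths and positions came from GENCODE M21 (GRCm38), which matched 45143 of 45706 genes and may not be the release the authors used. Replicates are separate pools, whose counts differed beyond sampling noise (chi-square divided by its degrees of freedom 6.70 in Sox17eKO and 4.95 in WT).

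The main fit was edgeR 4.0.16 (R 4.3.3) with TMM factors, filterByExpr, genotype as the only term and the robust quasi-likelihood test. The standard error (SE) was taken as the absolute log2 change over the root of its F value, and CPM were scaled by TMM. The edgeR p-values set each difference against the spread between pools, which was estimated with information shared across genes. The exact permutation test on 2 against 2 libraries can give no p under 0.333. Alternatives were DESeq2 1.42.0, limma-voom (limma 3.58.1), other scalings and filters, protein-coding genes only, a length trend removed (mgcv 1.9.3), a replicate block and each library left out. Intervals on reads cover counting error only, and reads are not independent molecules. Scripts were tested on simulated data. The 9 genes, the lists and the alternatives were chosen with earlier results of these data known. Named were the 9 genes, Sox17, each called gene of a pathway list or, where none was called, the one with the smallest p, and the 3 genes nearest to Nfatc1. The named marker genes, Ppp3cc, Ppp3r2 and Rcan3 were named after their values were seen.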

Additional observations from a re-analysis of the deposited data

How the results depend on the processing

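None of the 9 genes was called in any fit that kept all genes or all protein-coding genes without a length trend. With the length trend removed, 1 was called (Ppp3ca), also 1 with the replicate block in that fit (log2 fold change -0.30, edgeR adjusted p = 5.75e-04), and from 0 to 1 with a library left out as well. Same-numbered replicates did not deviate together (correlation across genes -0.03), so the numbers were not used as pairs; as a replicate block they gave 1684 calls over all genes and 10 in the pathway lists, against 886 and 5. Calls over all genes were 409 with DESeq2, 517 with limma-voom, 1364 with no filter on low counts and 132 with the length trend removed. With 1 library left out they ranged from 192 (without WT replicate 2) to 1219 (without WT replicate 1) and were 472 without Sox17eKO replicate 1; with the trend also removed they were 151 and 185 without Sox17eKO replicates 1 and 2, and 248 and 48 without WT replicates 1 and 2. Calls in the pathway lists were 2 with limma-voom, 8 with no filter, 2 without the robust option and 1 with the length trend removed, from 2 to 6 with 1 library left out, and from 0 to 1 with both. Over 162 refits of single genes, 150 kept the direction of the log2 fold change. Those that did not are these. Nfatc1 was 0.02 with library size scaling and 0.00 on protein-coding genes, and with 1 library left out ranged from -0.06 to 0.03. In the same fits Nfatc2 ranged from -0.08 to 0.71, Rcan1 from -0.16 to 0.05 and Rcan2 from -0.16 to 0.03. With the trend also removed, Nfatc2 was -0.29 without WT replicate 1, Nfatc3 -0.01 without WT replicate 2, Rcan1 0.08 without Sox17eKO replicate 2, and Ppp3r1 0.03 without WT replicate 1 and 0.00 without Sox17eKO replicate 1. The difference in family share reversed for Nfatc4 as a share of counts (-0.109 points), and with 1 library left out ranged across 0 for Nfatc2 (-0.556 to 1.39), Nfatc4 (-0.968 to 1.43), Ppp3cc (-1.95 to 0.456), Rcan1 (-2.28 to 1.96), Rcan2 (-1.79 to 1.90) and Rcan3 (-0.563 to 0.779). The causes were not tested. At this depth Nfatc2, with 47 to 135 reads, was the least precise of the 9.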
